A study of Mus musculus with 8 samples.

Results

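The 34 genes described here are those of the mouse oocyte, the female germ cell that each ovarian follicle encloses. They were chosen by symbol from textbook roles: the coat of the egg, the growth factors it secretes, its transcription factors, the RNAs and proteins it stores for the embryo, and general germ cell genes. All 34 were found by NCBI gene ID among the 41591 genes of the count tables, and 32 of them had enough counts to be tested. Gene expression was measured by RNA sequencing of whole ovaries from 8 female C57BL/6 mice aged about 3 weeks, 4 per group. The Control mice, littermates of the knockouts, have the label wild-type, Pgr-Cre positive; Pgr-Cre is a Cre recombinase driven from the progesterone receptor gene. The DKO mice carried a conditional double knockout of Insr and Igf1r, which encode the receptors for insulin and for insulin-like growth factor 1, and their labels do not state the Cre. Every mouse of both groups was superovulated with 4 IU of equine chorionic gonadotropin (eCG), then after 48 h with 5 IU of human chorionic gonadotropin (hCG), and its ovaries were collected 12 h later, about when ovulation is due. In the ovary Pgr is chiefly switched on in granulosa cells of follicles that have received the ovulatory signal, and a whole ovary also holds many cells that do not express it.

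An oocyte grows for weeks inside its follicle, held in meiotic arrest, and fills with messenger RNA and protein that will serve the early embryo before its own genome is active. It builds a glycoprotein shell, the zona pellucida, and secretes growth factors that direct the granulosa cells around it. The surge of luteinizing hormone, for which hCG stands in, releases the arrest in large follicles and leads to ovulation, while the many small follicles keep their oocytes.

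The libraries held 33145056 to 39257648 counts in genes, and the oocyte genes took 0.0386% to 0.105% of them. Samples are called by group and replicate below. Their titles also carry numbers, whose meaning the labels do not give: Control 1 to 4 are titled FINS_167, FINS_259, FINS_261 and FINS_263, and DKO 1 to 4 FINS_201, FINS_202, FINS_249 and FINS_252. Control 1, DKO 1 and DKO 2 are called the low-number libraries below and the other 5 the high-number libraries, with a gap in the numbers between the sets. Several libraries stood apart from the rest. The oviduct gene Ovgp1 was at 1147 CPM (counts scaled to library size with TMM factors) in Control 1 and 724 CPM in DKO 2, against 2.51 to 23.8 CPM in the other 6. The summed level of 10 oviduct markers was 1716 CPM in Control 1 and 1039 CPM in DKO 2, against 97.2 to 155 CPM elsewhere. The 18S ribosomal RNA gene Rn18s-rs5 took 2.45% of the counts of DKO 1 and 2.32% of those of DKO 2, against 0.113% to 0.263% in the other 6 libraries, although the kit selects polyadenylated RNA. Insr was at 140 to 162 CPM in Control and 112 to 148 CPM in DKO, and Igf1r at 196 to 263.3 and 200 to 247 CPM. Neither passed the test (edgeR log2 fold change -0.30, adjusted p = 0.226, and -0.14, adjusted p = 0.639), and counts over a whole gene do not separate a deleted exon. Over all 16870 genes tested, 212 were called at an edgeR adjusted p under 0.05, 128 higher and 84 lower in DKO.

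No oocyte gene was called in the comparison of DKO with Control. In nearly all of these genes the low-number libraries lay below the high-number libraries. Of the 32 tested, 0 were lower and 0 were higher in DKO (edgeR's quasi-likelihood test with Benjamini-Hochberg adjustment over all genes). Of all genes tested, 1.26% were called in either direction, 0.498% lower and 0.759% higher. At an unadjusted p under 0.05 the count of oocyte genes was also 0, where 2599 of all 16870 genes tested passed. DESeq2 called 0 of 34, and 1074 of 29920 genes in all. Limma-voom with sample quality weights called 0 of 32, and 1651 of 16870 in all. The fold changes leaned to one side without passing: 29 of 32 were below 0, where 53.1% of all genes tested were. Their median log2 fold change, DKO over Control, was -0.34, and they ran from -0.63 (Nlrp2) to 0.05 (Figla), beside a median of -0.02 over all genes. The standard errors ran from 0.16 to 0.57, so none of these differences was large against the spread between libraries. No oocyte gene had 4 Control libraries all above or all below the 4 DKO libraries, an arrangement seen in 9.24% of all genes tested.

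In 28 of the 32 genes, the low-number libraries Control 1, DKO 1 and DKO 2 all lay below the other 5. Of all genes tested, 10.2% had this order, and 8% had the same 3 libraries above the other 5, which no oocyte gene did. The exceptions were Figla, Sohlh1, Kit and Uchl1. The summed level of the 32 oocyte genes other than Kit and Uchl1 was 279, 916, 684 and 789 CPM in Control 1 to 4. In DKO 1 to 4 it was 300, 347, 874 and 561 CPM. The lowest library was thus a Control, and the next to the top was a DKO. In whole-ovary RNA, fewer oocytes and less RNA per oocyte cannot be told apart. Since CPM is a share of each library, neither can be told from more RNA of other cells.

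**Figure D1:**
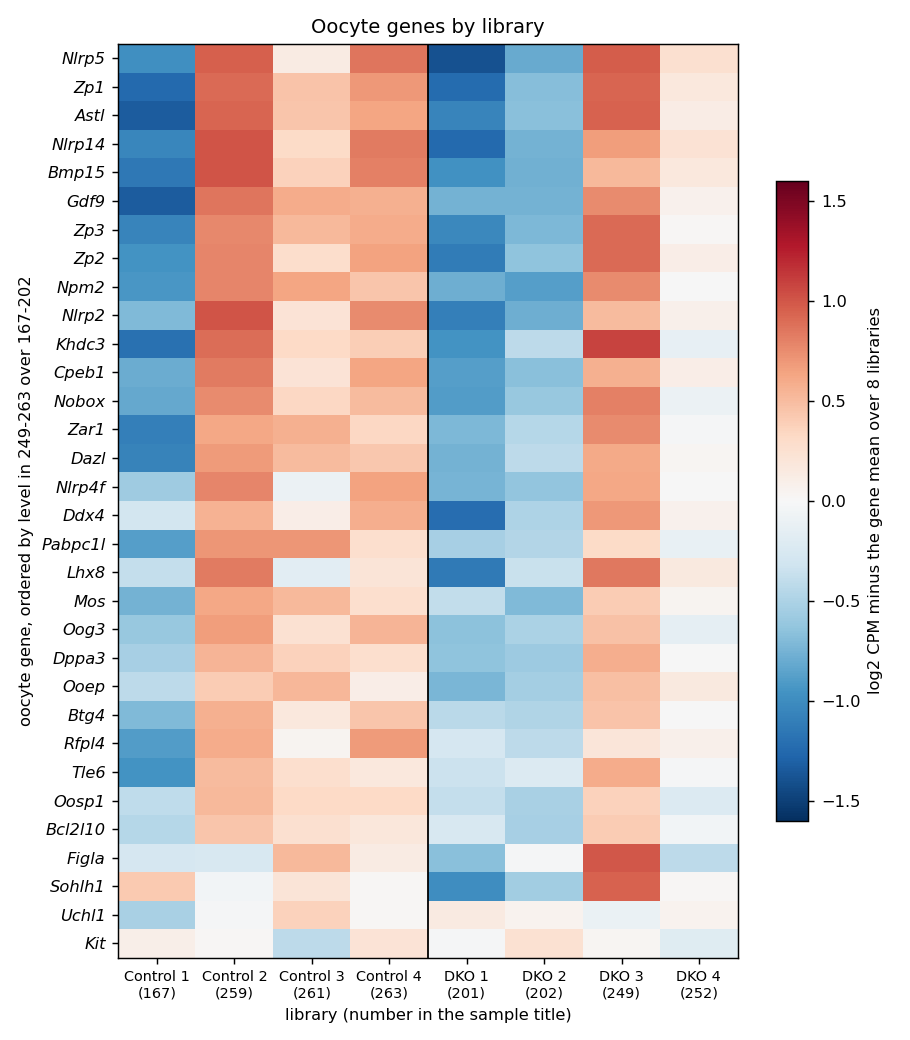
Level of each of the 32 tested oocyte genes (rows) in each library (columns, with the number in the sample title), as log2 CPM minus the mean of that gene over the 8 libraries. In 28 of the 32 rows Control 1, DKO 1 and DKO 2 are all lower than the other 5 libraries, and the rows of Figla, Sohlh1, Uchl1 and Kit do not follow that order.

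The zona pellucida genes encode the glycoproteins of the egg coat, on which sperm bind, and are transcribed in growing oocytes. Zp3 (gene ID 22788, chromosome 5, 135980105 to 135988624, plus strand, GRCm38.p5) was at 15.3, 54.0, 45.6 and 47.8 CPM in Control 1 to 4 and at 15.6, 19.3, 59.4 and 32.1 CPM in DKO 1 to 4. Zp2 (gene ID 22787, chromosome 7, 120126772 to 120145414, minus strand) was at 28.3, 94.3, 66.6 and 85.8 CPM in Control and 25.3, 35.1, 103 and 59.2 CPM in DKO. Zp1 (gene ID 22786, chromosome 19, 10914296 to 10920601, minus strand), whose protein links the filaments of the other zona proteins, was at 7.04, 31.3, 22.9 and 27.0 CPM in Control and 7.13, 10.4, 31.99 and 18.8 CPM in DKO. In all 3 genes the same 3 libraries were low, DKO 3 was the highest, and the groups overlapped over nearly their whole range. The means were 40.7 ± 17.3 CPM in Control and 31.6 ± 19.8 CPM in DKO for Zp3 (SD, n = 4 each). The edgeR log2 fold changes were -0.36 ± 0.50 (SE) for Zp3 with an adjusted p of 0.791, -0.31 ± 0.49 for Zp2 with 0.825, and -0.37 ± 0.55 for Zp1 with 0.809.

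The 3 zona genes kept nearly the same proportions whatever their total. On a scale per length of exon (RPKM, CPM per kilobase of exon), Zp1 made up 14.0% to 17.4% of the 3 genes' sum over the 8 libraries, Zp2 35.6% to 41.8% and Zp3 42.7% to 47.9%. Their summed CPM differed 4-fold over the same libraries, from 48.1 in DKO 1 to 194 in DKO 3. In Control 1, where the sum was 50.6 CPM, the share of Zp3 was 44.3%, and in DKO 3 it was 44.5%.

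Gdf9 and Bmp15 encode the related growth factors by which the oocyte drives granulosa cell growth and the swelling of the cumulus. Gdf9 (gene ID 14566, chromosome 11, 53430967 to 53437903, plus strand) was at 25.1, 114, 95.1 and 93.7 CPM in Control 1 to 4 and at 37.4, 37.1, 106 and 65.9 CPM in DKO 1 to 4. Bmp15 (gene ID 12155, chromosome X, 6314106 to 6320723, minus strand) was at 12.1, 53.7, 34.5 and 46.7 CPM in Control and 13.6, 15.6, 38.0 and 30.02 CPM in DKO. Both were lowest in Control 1 and highest in Control 2, so the Control group alone spanned the whole range of the 8 libraries. Bmp15 had an edgeR log2 fold change of -0.59 ± 0.48 (SE, adjusted p = 0.623), the second lowest of the oocyte genes, and Gdf9 one of -0.41 ± 0.50 (adjusted p = 0.767). Per length, Gdf9 made up 75.4% to 81.0% of the pair's sum in the 8 libraries.

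The oocyte's transcription factors were the group in which the pattern by title number was mixed. Figla, a basic helix-loop-helix factor needed for the formation of primordial follicles and for zona gene transcription, was among the rarest members, with 20 to 61 counts per library. Figla (gene ID 26910, chromosome 6, 86016494 to 86020996) was at 0.67, 0.68, 1.15 and 0.88 CPM in Control 1 to 4 and at 0.51, 0.80, 1.61 and 0.60 CPM in DKO 1 to 4. Its log2 fold change was 0.05 ± 0.41 (SE, edgeR adjusted p = 0.966), and Control 1 stood beside Control 2 rather than below it. Without DKO 3, its highest library, the fold change was -0.41.

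Nobox, a homeobox factor that acts in the oocytes of early follicles and switches on Gdf9 and other oocyte genes, had the low-number libraries lowest. Nobox (gene ID 18291, chromosome 6, 43303674 to 43310072) was at 5.18, 15.5, 11.5 and 13.0 CPM in Control 1 to 4 and at 4.92, 6.04, 16.1 and 8.61 CPM in DKO 1 to 4. The 3 low libraries lay between 4.92 and 6.04 CPM and the other 5 between 8.61 and 16.1 CPM. Its log2 fold change was -0.34 ± 0.42 (SE, edgeR adjusted p = 0.767). The LIM homeobox gene Lhx8 had the same 3 libraries lowest, at 1.24 to 2.12 CPM against 2.42 to 4.91 CPM. Sohlh1, another helix-loop-helix factor of early follicles, did not: it was at 1.21 CPM in Control 1, second only to 1.74 CPM in DKO 3, and lowest at 0.46 CPM in DKO 1. Sohlh1 rested on 18 to 66 counts per library.

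**Figure D2:**
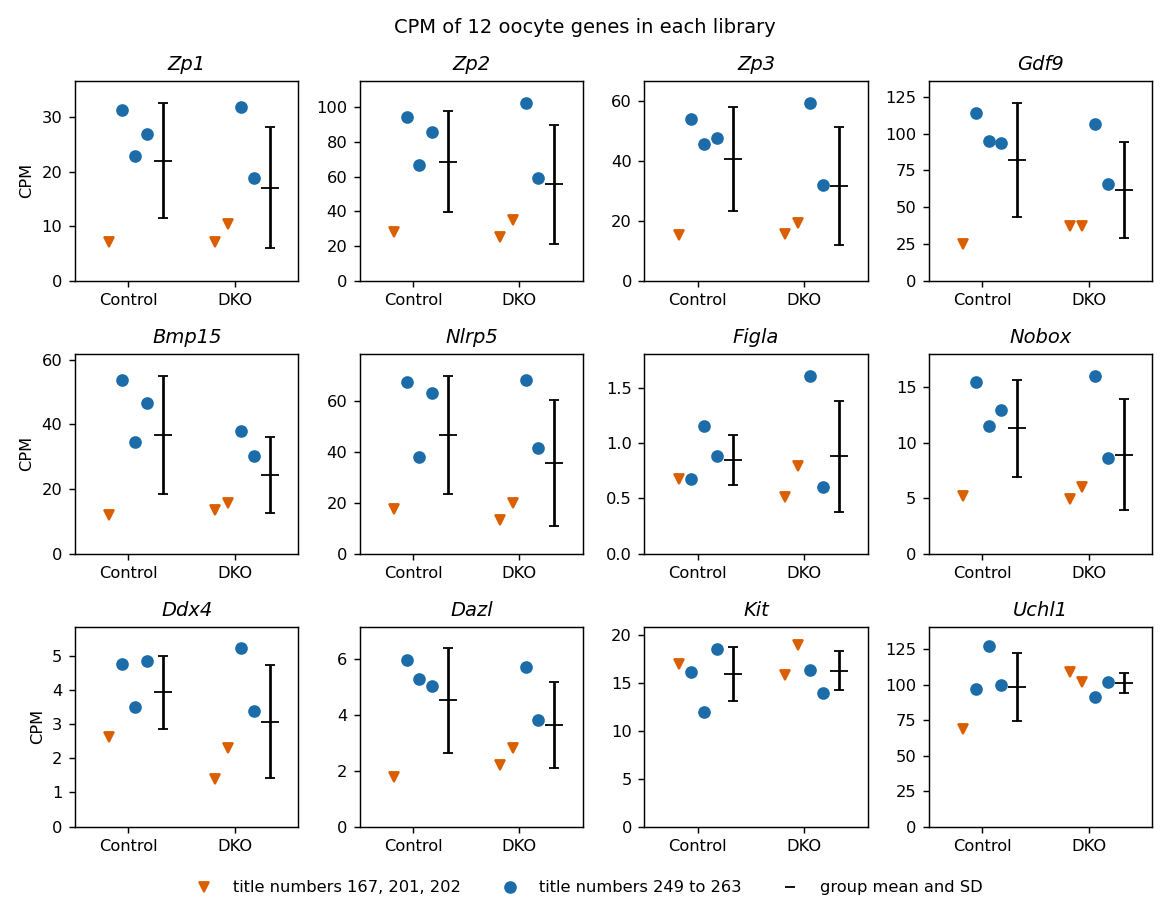
CPM of 12 oocyte genes in each library, by group, with the mean and SD of the 4 libraries beside the points; triangles are the 3 low-number libraries and circles the 5 high-number libraries. In Zp3 the triangles lie at 15.3 to 19.3 CPM in both groups and the circles at 32.1 to 59.4 CPM, whereas in Kit and Uchl1 the marks are mixed.

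Ooep, Nlrp5, Tle6, Khdc3 and Padi6 encode parts of the subcortical maternal complex, a protein assembly under the egg surface that the embryo needs for its first divisions, and Nlrp2, Nlrp4f and Nlrp14 are relatives of Nlrp5 that are also expressed in oocytes. Nlrp5 (gene ID 23968, chromosome 7, 23385889 to 23441923, plus strand) was at 17.7, 67.7, 38.1 and 63.2 CPM in Control 1 to 4 and at 13.3, 19.96, 68.4 and 41.7 CPM in DKO 1 to 4. It had the largest standard error of the oocyte genes, with a log2 fold change of -0.38 ± 0.57 (edgeR adjusted p = 0.812), and its highest library held 5.15 times the CPM of its lowest. Nlrp2 (gene ID 232827, chromosome 7, 5298547 to 5351035, minus strand) had the lowest fold change of the 32, -0.63 ± 0.43 (SE, edgeR adjusted p = 0.544). Nlrp2 was at 2.55, 8.39, 4.84 and 7.05 CPM in Control 1 to 4 and at 1.95, 2.41, 5.93 and 4.39 CPM in DKO 1 to 4. Control 1 was thus below 2 of the 4 DKO libraries in Nlrp2, and the groups overlapped.

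Nlrp14 was the most abundant of the NLRP genes per length, at 20.7 RPKM on average. Nlrp14 (gene ID 76858, chromosome 7, 107127432 to 107198103) was at 29.6, 122, 75.0 and 108 CPM in Control 1 to 4 and at 25.6, 36.1, 97.1 and 71.5 CPM in DKO 1 to 4, with a log2 fold change of -0.54 ± 0.52 (SE, edgeR adjusted p = 0.692). Tle6, Khdc3, Ooep and Nlrp4f had log2 fold changes of -0.04, -0.18, -0.28 and -0.38. All 7 tested genes of this set had the low-number libraries lowest. Tle6 showed the weakest contrast of the 7, at 23.0 to 38.5 CPM in those libraries and 44.0 to 67.3 CPM in the other 5, and Nlrp5 the strongest.

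Padi6, an enzyme-like protein of the oocyte's cytoplasmic lattices, and Oog4 did not pass the filter on low counts. Padi6 had 0, 5, 1 and 1 counts in Control 1 to 4 and 0, 0, 3 and 0 in DKO 1 to 4, and Oog4 had 1, 5, 3 and 5 counts in Control and 3, 1, 7 and 1 in DKO. Both are also the only 2 oocyte genes of the 34 whose exons the deposited tables list on 2 sequences, chromosome 4 and a second sequence. Another listed oocyte gene with exons on 2 sequences, Ybx2, had 0 to 2 counts per library. The counting command in the file headers names no setting for multi-mapped reads. Over all genes, 21.4% of the 1646 with exons on more than 1 sequence reached 100 counts over the 8 libraries, against 40.6% of the 39945 on a single sequence. Low counts in these rows therefore cannot be read as low RNA. The further oocyte genes with exons on 2 sequences Tcl1b1, Tcl1b2, Tcl1b3 and Oog2 had 309 to 635 counts over the 8 libraries.

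The other maternal-effect genes were Dppa3, which protects the maternal genome from demethylation, Npm2, a chaperone of sperm chromatin remodelling, Zar1, which binds stored RNA, Bcl2l10, a relative of the survival protein Bcl-2, and Rfpl4. Their log2 fold changes ran from -0.44 for Npm2 to -0.21 for Bcl2l10, the smallest edgeR adjusted p being 0.706. All 5 had the low-number libraries lowest. Bcl2l10 was the steadiest of them, at 14.4 to 17.3 CPM in those 3 libraries and 20.2 to 28.3 CPM in the other 5. Npm2 shares 67.5% of its exon bases with Xpo7 on the same strand, so its counts are uncertain. Its CPM went with the other members, at 7.41 to 8.20 in the 3 low libraries and 14.0 to 24.2 in the rest.

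Genes that hold or release stored RNA and carry meiosis forward gave the same order. They were Mos, the kinase of metaphase arrest, Cpeb1, which controls polyadenylation of stored RNA, Btg4, an adaptor for clearing it, and Pabpc1l, the oocyte's poly(A)-binding protein. Pabpc1l (gene ID 381404, chromosome 2, 164024770 to 164050538, plus strand) was at 3.04, 9.16, 9.13 and 6.77 CPM in Control 1 to 4 and at 3.88, 4.06, 6.94 and 5.17 CPM in DKO 1 to 4. It was lowest in Control 1, yet the other 3 Control libraries included its 2 highest values. Its log2 fold change was -0.49 ± 0.34 (SE, edgeR adjusted p = 0.564), and those of Cpeb1, Mos and Btg4 were -0.44, -0.35 and -0.26.

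Astl encodes ovastacin, the cortical granule protease that hardens the zona after fertilization, and Oosp1 a small secreted oocyte protein. Oosp1 (gene ID 170834, chromosome 19, 11667460 to 11691051, minus strand) had the smallest adjusted p of the oocyte genes, 0.524, with an edgeR log2 fold change of -0.37 ± 0.24 (SE). Oosp1 was at 8.17, 15.5, 13.5 and 13.4 CPM in Control 1 to 4 and at 8.28, 7.54, 13.9 and 9.24 CPM in DKO 1 to 4. One Control library lay among the low values and 1 DKO library above 3 of the Control libraries. Astl had a similar fold change, -0.34, with a larger standard error of 0.54, since its CPM in the 8 libraries ran from 4.27 to 20.6. Oog3 had a log2 fold change of -0.43 ± 0.31 (SE, edgeR adjusted p = 0.579).

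Ddx4, the germ line RNA helicase also called Vasa, and Dazl, a translation factor of germ cells, mark germ cells of every stage. Ddx4 (gene ID 13206, chromosome 13, 112598333 to 112652633, minus strand) was at 2.63, 4.78, 3.49 and 4.85 CPM in Control 1 to 4 and at 1.40, 2.30, 5.22 and 3.39 CPM in DKO 1 to 4. Dazl (gene ID 13164, chromosome 17, 50279393 to 50293620, minus strand) was at 1.77, 5.96, 5.28 and 5.03 CPM in Control and 2.21, 2.80, 5.70 and 3.82 CPM in DKO. Both had the same 3 libraries lowest as the zona genes, with log2 fold changes of -0.36 ± 0.39 and -0.31 ± 0.41 (SE, edgeR adjusted p = 0.731 and 0.777).

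Kit and Uchl1 did not share the pattern of the rest. Kit is the receptor by which the oocyte answers granulosa Kit ligand and is also found on mast cells and other cells. Uchl1, a deubiquitinating enzyme of oocytes, is also abundant in neurons. Kit (gene ID 16590, chromosome 5, 75574987 to 75656722, plus strand) was at 17.0, 16.1, 11.9 and 18.5 CPM in Control 1 to 4 and at 15.8, 18.9, 16.3 and 13.9 CPM in DKO 1 to 4. Uchl1 (gene ID 22223, chromosome 5, 66676121 to 66687234, plus strand) was at 69.0, 97.0, 127 and 99.6 CPM in Control and 109, 102, 91.6 and 102 CPM in DKO. Kit was highest in DKO 2 and lowest in Control 3, both against the order of the zona genes, while Uchl1 was low in Control 1 but not in DKO 1 or DKO 2. Their log2 fold changes were 0.03 ± 0.16 and 0.04 ± 0.16 (SE, edgeR adjusted p = 0.948 and 0.931), the most precise of the oocyte genes.

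Markers of the other cells that use Kit and Uchl1 were measured beside them. Of 8 mast cell markers, 4 were tested and 2 were called lower in DKO, where 0.498% of all genes tested were. These were Cpa3 (log2 fold change -1.66, edgeR adjusted p = 0.0482) and Tpsb2 (-1.79, 0.0425), both just under the threshold. They rested on few counts per library, 8 to 42 for Cpa3 and 11 to 68 for Tpsb2. The summed level of the 8 mast cell markers was 108 to 213 CPM in Control and 100.1 to 117 CPM in DKO. Nearly all of it was Hdc, a gene that other cells also express, and the defining markers Fcer1a and Ms4a2 were at most at 0.141 CPM in any library. Of 9 neuron markers, 7 were tested and 0 were called at an adjusted p under 0.05. At an unadjusted p under 0.05 there were 2, where 2599 of all 16870 genes tested were. These 2 went in opposite directions, Snap25 at a log2 fold change of -2.78 and Tubb3 at 0.476 (edgeR adjusted p = 0.176 and 0.283). With the block for title numbers described below, 1 neuron marker was called, Snap25, a protein of vesicle release, where 3.12% of all genes were. Its log2 fold change was -2.45 (edgeR adjusted p = 0.0327). Snap25 was also called in the high-number libraries alone (-2.32, 0.0183), where 0.982% of all genes were. The sum of the 9 neuron markers was 27.4 to 73.6 CPM in Control and 23.9 to 39.4 CPM in DKO. Snap25 alone gave 47.1 CPM of the highest sum, in Control 3, and was at 0.228 CPM in DKO 1. Whether its RNA came from neurons was not tested. The part of these cells in the levels of Kit and Uchl1 was not tested.

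**Figure D3:**
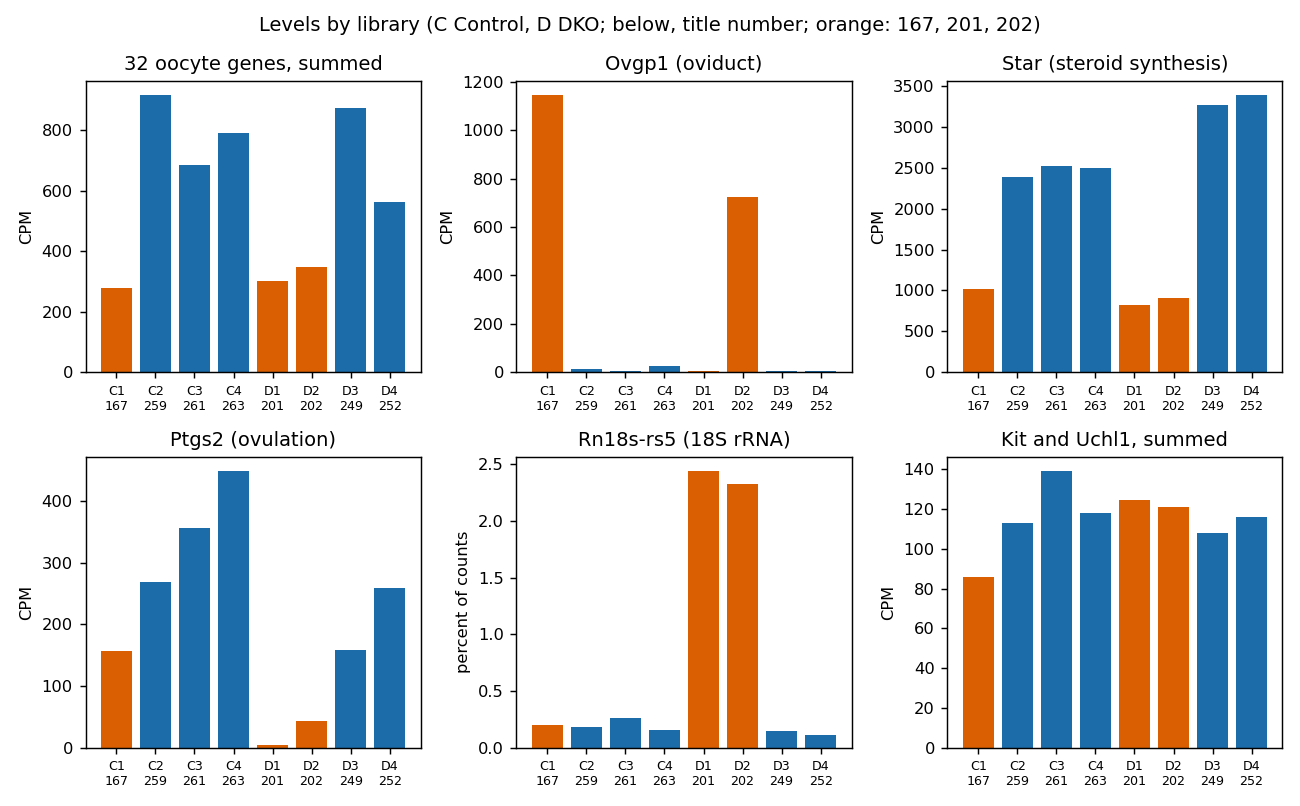
Bars by library (Control 1 to 4, then DKO 1 to 4, with title numbers; the 3 low-number libraries in orange) of the summed CPM of 32 oocyte genes, the CPM of Ovgp1, Star and Ptgs2, the percent of counts in Rn18s-rs5, and the summed CPM of Kit and Uchl1. The oocyte sum is 279 to 347 CPM in the orange libraries and 561 to 916 CPM in the others, while Ovgp1 is high in Control 1 and DKO 2 and Rn18s-rs5 in DKO 1 and DKO 2.

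The shared movement can be stated in a single number per library. The median deviation of 30 oocyte genes (the tested ones other than Kit and Uchl1) from their own means, in log2 CPM, was -0.84, 0.73, 0.32 and 0.47 in Control 1 to 4 and -0.77, -0.56, 0.64 and 0.02 in DKO 1 to 4. Over all genes tested the same median stayed between -0.02 and 0.02 in every library, which the scaling by TMM factors largely sets. The lowest library was Control 1 for 14 of the 30 genes, DKO 1 for another 14 and DKO 2 for 2. The highest was Control 2 for 14, DKO 3 for 14, and Control 3 and Control 4 for 1 each. Among the 5 high-number libraries, DKO 4 was the lowest for 24 of the 30 genes and DKO 3 exceeded DKO 4 in all 30.

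The ratio of the mean CPM in the high-number libraries to that in the low-number libraries had a median of 2.09 over the 32 genes. Over all genes tested the median was 0.997, which the scaling by TMM factors also largely sets. Among the 32, the ratio was highest for Nlrp5 (3.28), Zp1 (3.22), Astl (3.12) and Nlrp14 (3.11). Growth factor and zona genes lay just under these, with Bmp15 at 2.95, Gdf9 at 2.86, Zp3 at 2.86 and Zp2 at 2.76. The lowest ratios among the 28 genes that shared the order were those of Bcl2l10 (1.59) and Oosp1 (1.64), and Kit was at 0.892.

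Much of the spread was shared by most of the oocyte genes. The SD of log2 CPM over the 8 libraries had a median of 0.65 for the 30 genes, against 0.29 over all genes tested. After the library's median deviation was taken off, the median SD of the same 30 genes was 0.24, still above the 0.07 that counting error gives. Since that median comes from the same genes, a smaller SD is built into the step for genes that move together. Nobox went from 0.70 to 0.09 and Dazl from 0.66 to 0.12, close to their counting errors of 0.08 and 0.12, while Oosp1 went only from 0.42 to 0.28 and Bcl2l10 from 0.38 to 0.30. Figla, at 0.51 before and 0.54 after, and Sohlh1, at 0.55 and 0.59, were the 2 genes whose SD did not shrink, and their counting errors were 0.26 and 0.24. Within the 5 high-number libraries alone the median SD of the 30 genes was 0.32, near the 0.26 of all genes.

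**Figure D4:**
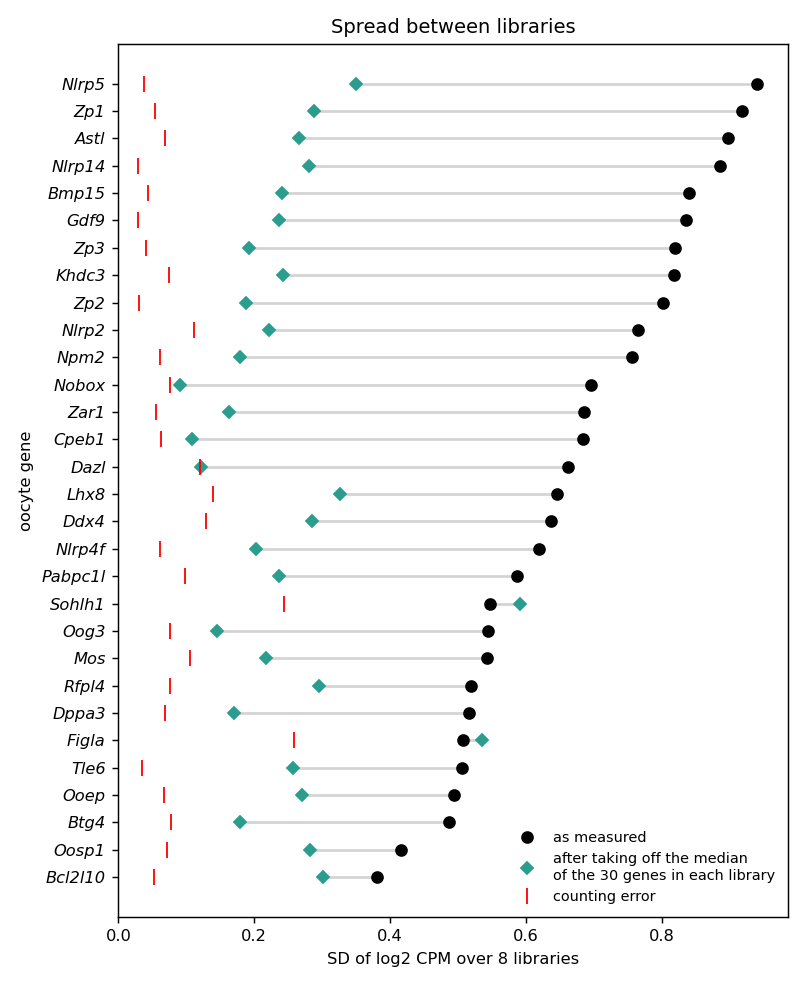
SD of log2 CPM over the 8 libraries for 30 oocyte genes as measured (circles) and after taking off the median deviation of the 30 genes in each library (diamonds), with the SD that counting error gives (red ticks). The diamonds lie left of the circles in 28 rows, Nobox from 0.70 to 0.09, and right of them in the rows of Figla and Sohlh1.

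The comparison of DKO with Control was therefore repeated with the title numbers taken into account. The low-number set holds 1 Control and 2 DKO libraries and the high-number set 3 Control and 2 DKO. With a block for the set, 21 of the 32 log2 fold changes were below 0, with a median of -0.04, and the median standard error was 0.20 in place of 0.41. In that fit 0 oocyte genes were called (edgeR, 0 at an unadjusted p under 0.05), where 3.12% of all genes were. Of all 16870 genes, 2991 had an unadjusted p under 0.05 in that fit. Zp3 was at -0.00016 ± 0.21 (SE), Gdf9 at 0.04 ± 0.20, Bmp15 at -0.17 ± 0.19, Nlrp2 at -0.33 ± 0.23 and Tle6 at 0.23 ± 0.18. In the high-number libraries alone, 27 of 32 were below 0 with a median of -0.09, and 0 were called by edgeR (0 at an unadjusted p under 0.05), where 0.982% of all genes were. Of the 17206 genes tested in those libraries, 2105 had an unadjusted p under 0.05.

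**Figure D5:**
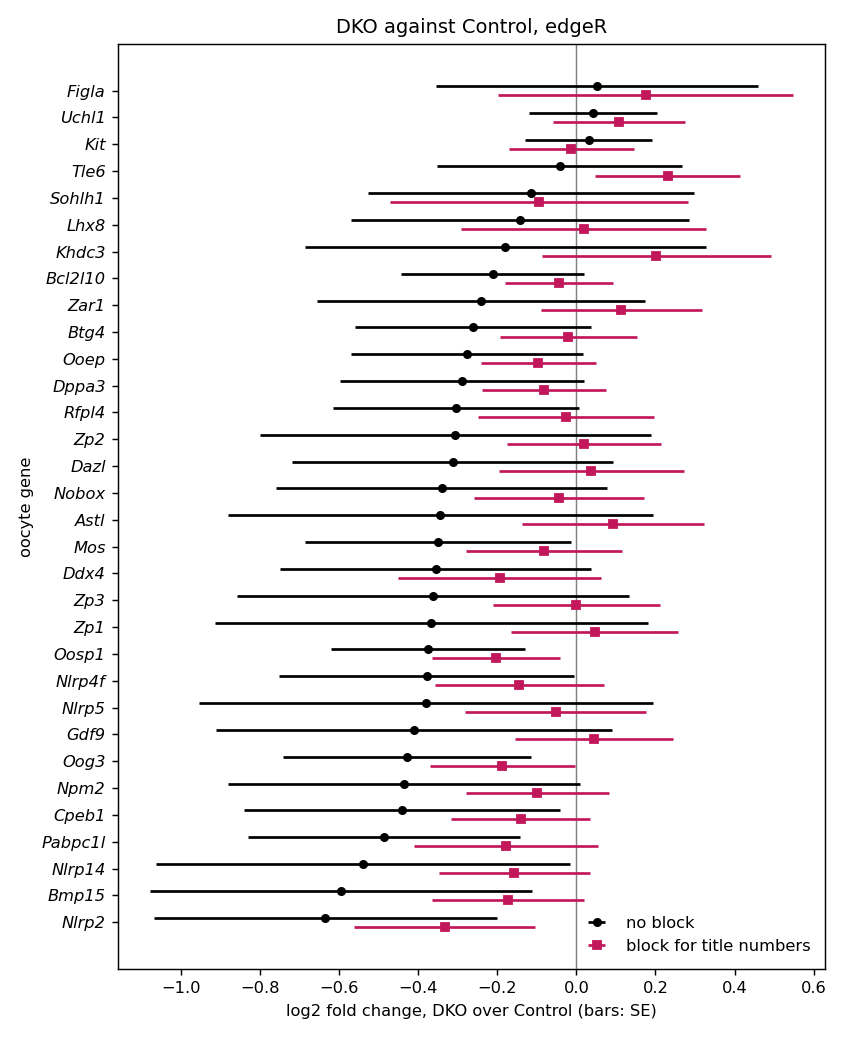
Log2 fold change of DKO over Control with its SE for each of the 32 tested oocyte genes, from the edgeR fit without a block (black circles) and with a block for the title numbers (pink squares). The circles have a median of -0.34 and the squares one of -0.04, and the bars of the squares are shorter for most genes.

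Leaving out the libraries that stood apart moved the lean of the fold changes but made no call. Without Control 1 and DKO 2, the libraries with the oviduct gene, 30 of 32 oocyte genes were below 0, the median over the 30 other than Kit and Uchl1 was -0.42 instead of -0.35, and edgeR called 0 (1 at an unadjusted p under 0.05). Without DKO 1 and DKO 2, the libraries with the most 18S RNA, 8 of 32 were below 0, that median was 0.11, and edgeR called 0 (0 at an unadjusted p under 0.05). A single library also moved it by over 1.5 times: it was -0.70 without DKO 3, -0.56 without Control 1, -0.18 without DKO 2, -0.16 without Control 2 and -0.14 without DKO 1. The fit without Control 1 had 31 of 32 genes below 0 and 5 at an unadjusted p under 0.05, the fit without DKO 3 had 30 and 2, and edgeR called 0 in both. Over all genes, 3070 of 17085 had an unadjusted p under 0.05 without Control 1, and 2215 of 17138 without DKO 3. Without Control 1 and DKO 2 the count was 2363 of 16839, and without DKO 1 and DKO 2 it was 1742 of 17502.

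Other measures were also read by the same sets of libraries. Ovgp1 was at 1147, 2.51 and 724 CPM in Control 1, DKO 1 and DKO 2, and at 2.90 to 23.8 CPM in the other 5. Rn18s-rs5 took 0.204%, 2.45% and 2.32% of the counts of the same 3 libraries, and 0.113% to 0.263% in the other 5. Star, which brings cholesterol to steroid synthesis, was at 1016, 821 and 907 CPM in Control 1, DKO 1 and DKO 2 and at 2395 to 3396 CPM in the other 5 libraries. It was the 1 of 8 luteal markers with this order, which 10.2% of all genes tested had. Of the 8, 2 were called higher in DKO, where 0.759% of all genes tested were. These were Hsd3b1 (log2 fold change 0.91, edgeR adjusted p = 0.0477) and Ptgfr (2.36, 0.0173). In 6 of the 8 the Control and DKO libraries did not overlap, an arrangement seen in 9.24% of all genes tested. Ptgs2, the prostaglandin synthase that the ovulatory signal switches on in granulosa cells, was at 156, 4.44 and 43.7 CPM against 159 to 449 CPM. Of 5 blood markers, the haemoglobin genes Hbb-bs and Hbb-bt had these 3 libraries lowest, Hbb-bs at 105, 0.609 and 1.06 CPM against 253 to 442 CPM, while Hba-a1, Hba-a2 and Alas2 did not and were highest in DKO 2. Of 10 granulosa and cumulus markers, Has2, Ptx3, Tnfaip6 and Ptgs2 had these 3 libraries lowest, an order that 10.2% of all genes tested had. Their ratios of high-number to low-number mean CPM were 7.87, 2.97, 6.40 and 4.38. The other markers of the 10 ran from 0.816 (Foxl2) to 1.16 (Fshr). Of the 10, 0 were called (edgeR, 1 at an unadjusted p under 0.05). The sum of the 10 was 2442 to 3356 CPM in Control and 2739 to 3282 CPM in DKO. Inha alone gave 1231 CPM of it in Control 1 and 2000 CPM in DKO 1. The part of these differences in the oocyte levels was not tested.

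Per length, the tested oocyte genes spanned over 2 orders of magnitude, and their order was only in part stable. Uchl1 was the highest at 86.9 ± 14.3 RPKM (SD, n = 8 libraries of both groups), followed by Gdf9 at 35.8 ± 17.5, Zp3 at 27.4 ± 13.6, Zp2 at 24.0 ± 11.8 and Nlrp14 at 20.7 ± 10.9 RPKM. Each of these 5 was above the next in all 8 libraries down to Nlrp14, although from Gdf9 downward the SDs over libraries overlap. Below Nlrp14 came Tle6 (18.5 RPKM), Bcl2l10 (17.4 RPKM) and Dppa3 (14.7 RPKM). The lowest tested were Ddx4 (0.917 RPKM), Figla (0.671 RPKM) and Sohlh1 (0.522 RPKM). Of the 33 pairs of neighbours in the order of all 34 genes, 9 had the same order in every library, and the other pairs cannot be ranked beyond their spread.

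A further list of 40 oocyte genes was read beside the 34. Of these, 39 were tested and edgeR called 0, while 2 had an unadjusted p under 0.05, DESeq2 called 0 and limma-voom with quality weights called 1 lower. Over all 16870 genes tested, 2599 had an unadjusted p under 0.05, and limma-voom with quality weights called 1651. The median log2 fold change was -0.36, with 35 of 39 below 0, and 29 of 39 had the low-number libraries lowest. The smallest p-values were those of Oosp2, a relative of Oosp1 (log2 fold change -1.45 ± 0.59, SE, edgeR adjusted p = 0.267), Taf4b, a transcription initiation subunit of germ cells (-0.38 ± 0.17, 0.314), and Sycp3, a protein of the meiotic chromosome axis (-0.74 ± 0.37, 0.389). Oosp2 was at 0.35, 2.77, 2.25 and 1.37 CPM in Control 1 to 4 and at 0.25, 0.77, 0.82 and 0.63 CPM in DKO 1 to 4, so that Control 1 again lay among the low values. The gene that limma-voom with quality weights called was Taf4b (log2 fold change -0.57, adjusted p = 0.0394).

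A list of genes for the exchange between the oocyte and the cells around it was also read for the order of libraries. Among its 12 genes were Kitl, the ligand of Kit, the receptors Bmpr2, Bmpr1b and Tgfbr1 for Bmp15 and Gdf9, and the gap junction genes Gja1 and Gja4. All 12 were tested and 0 had the low-number libraries lowest, where 10.2% of all genes tested did. So small a list cannot be set apart from that share. None was called by edgeR, and 3 had an unadjusted p under 0.05, where 2599 of all 16870 genes tested did. Tgfbr1, the type I receptor that serves Gdf9, was at 463, 433, 527 and 633 CPM in Control 1 to 4 and at 333, 345, 353 and 444 CPM in DKO 1 to 4 (log2 fold change -0.48 ± 0.15, SE, edgeR adjusted p = 0.155). Only DKO 4 reached the Control range for Tgfbr1. Npr2, the guanylyl cyclase that keeps the oocyte in arrest, had a log2 fold change of -0.35 ± 0.13 (SE, adjusted p = 0.222), or -0.21 without Control 2, its highest library, and Acvr1b, an activin receptor, one of -0.31 ± 0.14 (adjusted p = 0.305). Npr2 was the 1 gene of the 12 whose groups did not overlap, an arrangement seen in 9.24% of all genes tested.

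Promoter sequences are shown for a zona gene, a growth factor and a transcription factor gene that moved together across libraries and for Uchl1, which did not. Figla is known to act at E-boxes in zona promoters and Nobox at TAATTG and TAATTA, so these letters were searched. The sequences are the 250 bases before the start of the gene in RefSeq on GRCm38.p6, 5′ to 3′ on the gene's strand, in lower case with every E-box (CANNTG, which reads the same pattern on both strands) in capitals. Starts in that table can differ from the spans given above, which are those of the count tables. The windows lie at chr5:135979855-135980104 (plus) for Zp3, chrX:6320725-6320974 (minus) for Bmp15, chr6:43309555-43309804 (minus) for Nobox and chr5:66675871-66676120 (plus) for Uchl1.
Zp3: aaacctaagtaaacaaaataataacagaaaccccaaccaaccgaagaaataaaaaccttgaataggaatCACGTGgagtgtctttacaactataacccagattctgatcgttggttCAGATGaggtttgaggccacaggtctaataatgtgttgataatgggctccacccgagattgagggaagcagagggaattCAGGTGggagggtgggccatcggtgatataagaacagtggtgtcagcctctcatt
Bmp15: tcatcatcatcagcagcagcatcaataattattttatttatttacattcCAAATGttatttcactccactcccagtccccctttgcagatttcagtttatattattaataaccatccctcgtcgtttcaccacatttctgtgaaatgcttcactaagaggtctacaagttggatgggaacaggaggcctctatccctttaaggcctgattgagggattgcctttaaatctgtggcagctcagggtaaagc
Nobox: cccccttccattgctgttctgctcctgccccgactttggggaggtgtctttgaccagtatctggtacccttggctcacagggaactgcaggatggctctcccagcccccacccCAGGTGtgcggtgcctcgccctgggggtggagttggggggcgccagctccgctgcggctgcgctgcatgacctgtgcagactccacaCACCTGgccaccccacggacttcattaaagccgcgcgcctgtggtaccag
Uchl1: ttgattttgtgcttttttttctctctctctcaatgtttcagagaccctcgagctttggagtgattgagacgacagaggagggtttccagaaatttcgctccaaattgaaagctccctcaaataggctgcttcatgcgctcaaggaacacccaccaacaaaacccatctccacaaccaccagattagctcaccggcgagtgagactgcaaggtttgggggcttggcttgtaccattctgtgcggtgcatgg
Zp3 holds 3 E-boxes in this window, Nobox 2, Bmp15 1 and Uchl1 0. Kit also has 0, and so do Lhx8 and Nlrp2, which shared the order of libraries of the zona genes. Of the 34 genes, 26 had a window in the RefSeq table, with 30 windows in all. An E-box was present in 24 of the 30 windows (80.0%), and in 66.2% of the 32851 windows of all genes. TAATTG or TAATTA on either strand was present in 5 of the 30 (16.7%), Bmp15 among them, and in 11.3% of all windows. These matches describe the letters only. Figla itself, which did not share the order of libraries, holds 2 E-boxes in its own window.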

How the data were processed

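The deposited files hold raw gene counts, 1 file per library, which the authors made per the file headers with featureCounts of Subread 1.5.2 on RefSeq exons of GRCm38.p5, summed by gene ID for reverse-stranded reads. The submitters' processing notes list STAR 2.4.2a, Trimmomatic 0.36 and 0.33, bcl2fastq 2.17.1.14 and edgeR 3.12.0, without roles. Symbols came from a RefSeq table of GRCm38.p6. The members and gene lists were chosen with earlier results of these data known. Members named with full values were 12 fixed by symbol, any called, the 3 with the smallest p and the 3 with the largest absolute log2 fold change. From the further lists, called genes and the 3 smallest p-values were named; the other genes beside them were chosen after their values were seen.

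Genes were kept by filterByExpr, scaled by TMM factors (0.943 to 1.06) and tested over all 8 libraries with edgeR 4.0.16 (quasi-likelihood, robust, two-sided, Benjamini-Hochberg, threshold 0.05) in R 4.3.3, without covariates. The script was tested on simulated counts. SE is the log2 fold change over the square root of F. RPKM uses the exon length in the deposited tables, and log2 CPM for spread used a prior count of 2. Alternatives used DESeq2 1.42.0 and limma 3.58.1. Pairs of libraries within a group differed beyond counting noise (reduced chi-square 22.9 to 129). Correlations of Zp3 with other members across libraries were planned but not computed, since the libraries fell into clusters of 3 and 5.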

Additional observations from a re-analysis of the deposited data

Results flagged for a closer look

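Of 4 libraries in a group, 1 stood far from the others in 4 instances, an arrangement that chance gives in about 1 in 20 groups. The search covered each of the 34 oocyte genes, sums of the gene lists and the named genes of the further lists, in both groups. Over that many values several such instances arise by chance. Padi6 was at 0.0791 CPM in DKO 3 and 0 in the other 3 DKO libraries, which rests on 3 counts. The summed oviduct markers were at 1716 CPM in Control 1, with the nearest Control at 155 CPM, and at 1039 CPM in DKO 2, with the nearest DKO at 115 CPM. Npr2 was at 167.3 CPM in Control 2, with the nearest Control at 119 CPM.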

How the results depend on the processing

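In each of 20 alternatives (other scalings, filters, tools, blocks and libraries left out) 0 oocyte genes were called. The count over all genes, 212, depended on the processing: it was 1074 with DESeq2, 1651 with limma-voom and quality weights, 743 with the replicate block, 526 with the block for title numbers, 97 without Control 1 and DKO 2, 64 without DKO 1 and DKO 2, and 2 to 506 when 1 library was left out, lowest without Control 2 and highest without Control 3, with only the fit without Control 1 staying within 1.5 times of it. For further oocyte genes, limma-voom with quality weights called 1. These fits that drop a pair of libraries were chosen after seeing the data. Other signs, all without a call, were found for these log2 fold changes. With the block for title numbers Dazl was at 0.038, Gdf9 at 0.044, Zp1 at 0.046, Zp2 at 0.019 and Kit at -0.013, and of the members not named with full values Tle6 was at 0.23, Khdc3 at 0.20, Zar1 at 0.11, Astl at 0.093 and Lhx8 at 0.019. Of the members named with full values, without DKO 1 and DKO 2, Dazl was at 0.099, Ddx4 at 0.15, Gdf9 at 0.094, Nlrp14 at 0.034, Nlrp5 at 0.26, Nobox at 0.15, Zp1 at 0.23, Zp2 at 0.26, Zp3 at 0.19, Kit at -0.052 and Uchl1 at -0.0017. Without Control 1 and DKO 2, Kit was at -0.00037 and Uchl1 at -0.083. In the high-number libraries alone Kit was at -0.018 and Uchl1 at -0.14. Of the members not named with full values, Sohlh1 was at 0.51 there, Lhx8 at 0.22, Khdc3 at 0.054 and Tle6 at 0.011. With limma-voom and quality weights Kit was at -0.0049. Leaving out 1 library gave -0.41 to 0.24 for Figla, -0.084 to 0.11 for Kit and -0.079 to 0.19 for Uchl1. The causes were not tested. With limma-voom and quality weights the median log2 fold change of the 30 oocyte genes was -0.55. Tgfbr1 passed with the replicate block (adjusted p = 0.0354), and Npr2 (0.0282) and Taf4b (0.0394) with limma-voom and quality weights.

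The labels give both groups replicate numbers 1 to 4, and libraries of the same number deviated from their group means over genes with r of 0.156, -0.359, 0.312 and 0.468. The numbers were therefore not taken to pair the libraries, and Control 1 correlated best with DKO 2 (r = 0.638). With the replicate block Figla was at -0.045 and 0 oocyte genes were called. Other scalings moved the median of all genes by at most 0.01. Figla and Sohlh1, at 18 to 66 counts per library, had counting errors of 0.26 and 0.24, below their measured SDs of 0.51 and 0.55. Padi6 and Oog4 could not be tested at their depth with the filter used.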
